A study of Mus musculus with 6 samples.

Results

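The collagen genes of the testis are described here across 2 genotypes of mice. A collagen gene was taken as any gene whose platform annotation symbol is Col, digits, then a and digits, as in Col4a1, and 42 of the 18194 genes with a probe set of their own met this rule. Each was read from its brightest probe set carrying a single symbol, and its other probe sets were checked. RNA of whole testes was measured on 6 Affymetrix arrays, 3 labelled SCARKO-jsd and 3 labelled jsd. All mice were 12 weeks old and all carried the jsd mutation of Utp14b, which stops spermatogonia of the adult from differentiating. In SCARKO-jsd mice a gene was also knocked out conditionally in Sertoli cells, which nurse germ cells inside the tubules. The Cre driver, the strain background and any floxed allele of the jsd mice are not stated, nor is the mouse behind each RNA, and p-values therefore reflect only how much these arrays varied. The design sets the Sertoli cell knockout against its jsd background in the whole testis.

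Collagens are secreted proteins built of chains that wind around each other in a triple helix. Fibrillar collagens such as types I, III and V form the tensile fibres of connective tissue, type IV collagen forms the sheet of basement membranes, and other types bind to fibres, bead into filaments or stay in the cell membrane. In the testis, a basement membrane rich in type IV collagen and laminin lies between the Sertoli cells and spermatogonia on its inner side and the peritubular myoid cells on its outer side, and Sertoli and myoid cells are both known to contribute to it. Fibrillar collagens lie in the tubule wall, the interstitium and the capsule. RNA of a whole organ does not show which cells made a transcript, and more cells of a type cannot be told apart from more RNA per cell.

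Values are log2 expression after RMA, so a difference of 1 is a doubling. Differences are given as SCARKO-jsd minus jsd throughout. A level belongs to its probe set and is not comparable between genes. Genes in the lowest 40% by mean over the 6 arrays (log2 expression up to 6.64) were called dim and not tested. Of the 42 collagen genes 24 passed this limit, and Col23a1 did so through its SCARKO-jsd arrays, since its jsd mean of 6.56 lay under it. Among the members just inside the limit were Col23a1 and Col25a1, with means over 6 arrays of 6.71 and 6.87, and just outside were Col13a1 and Col12a1, with 6.53 and 6.43.

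One array, SCARKO-jsd 2, was unlike the rest. The gap between 3' and 5' probe sets of beta-actin reached 1.66 in SCARKO-jsd 2 and lay between 0.70 and 0.98 elsewhere (log2 units), and that of Gapdh reached 0.64 in SCARKO-jsd 2 and lay between -0.28 and -0.10 elsewhere. SCARKO-jsd 2 was the highest array for 48.7% of all genes tested. Androgen-induced Rhox5 of Sertoli cells had log2 expression of 5.44, 6.11 and 5.84 in the SCARKO-jsd arrays, against 10.26, 10.43 and 9.74 in the jsd arrays. Markers of Sertoli cells (14 of 14 measured), peritubular myoid cells (14 of 14) and Leydig cells (7 of 7) all lay above the dim limit, while 10 of 14 markers of spermatocytes and spermatids were dim.

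Of the collagen genes, a chain of the common basement membrane network alone passed the test. Col4a1 rose 1.47-fold in SCARKO-jsd testes, and its partner Col4a2 was 1.40-fold higher, just outside the threshold. Col9a3, a cartilage collagen chain, and Col18a1, a collagen of vessel and epithelial basement membranes, were 1.54-fold and 1.41-fold higher, also outside it. The fibrillar collagens of types I, III and V lay within 0.16 log2 units of no difference. In the limma fit, 1 of the 24 tested collagen genes was higher and 0 were lower at an adjusted p (Benjamini-Hochberg) under 0.05, whereas 3.57% of all 10916 genes tested passed, 1.78% higher and 1.80% lower. A single call among 24 genes is a share near this background. At an unadjusted p under 0.05 there were 4 collagen genes, all higher, where 18.0% of all genes tested passed, 10.9% as higher. The median log2 fold change was 0.06 over the 24 tested collagen genes and 0.05 over all 42, against 0.04 over all genes tested. Without SCARKO-jsd 2 the median was -0.01 over the tested collagen genes, 12 with positive and 12 with negative differences, and 0.00 over all genes tested.

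**Figure D1:**
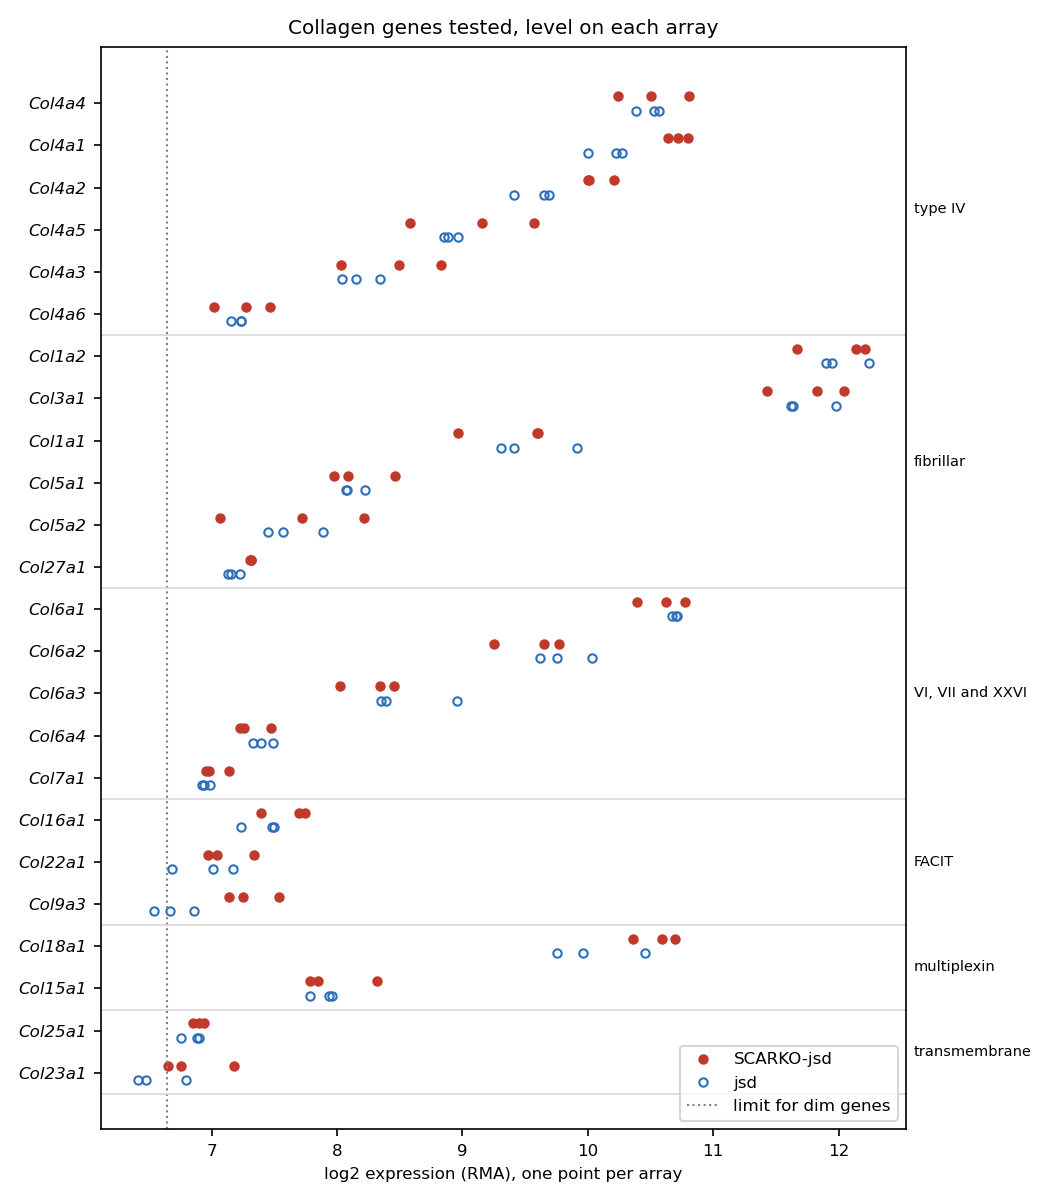
Log2 expression (RMA) of the 24 tested collagen genes on each of the 6 arrays, with filled points for SCARKO-jsd and open points for jsd, ordered by class and by mean; the dotted line is the dim limit. The SCARKO-jsd points of Col4a1, Col4a2, Col9a3 and Col27a1 lie to the right of all jsd points of the same gene, and those of Col1a2, Col3a1 and Col6a1 mix with the jsd points.

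Col4a1 and Col4a2 encode the chains that wind together into the type IV collagen of nearly all basement membranes. The genes lie head to head on mouse chromosome 8 and are read in opposite directions. The windows around their start sites are shown because Col4a1 was the called collagen gene and its neighbour lay close to the threshold, and the windows show how closely their starts are packed. Both windows run from 250 bases before the start site to 50 bases after it and are taken from RefSeq on GRCm38.p6. The Col4a1 window is chr8:11312777-11313076 on the minus strand and the Col4a2 window is chr8:11312555-11312854 on the plus strand. Each is written 5' to 3' in its own gene's direction, and capitals mark the 78 bases that both windows contain, which are reverse complements of each other.
Col4a1: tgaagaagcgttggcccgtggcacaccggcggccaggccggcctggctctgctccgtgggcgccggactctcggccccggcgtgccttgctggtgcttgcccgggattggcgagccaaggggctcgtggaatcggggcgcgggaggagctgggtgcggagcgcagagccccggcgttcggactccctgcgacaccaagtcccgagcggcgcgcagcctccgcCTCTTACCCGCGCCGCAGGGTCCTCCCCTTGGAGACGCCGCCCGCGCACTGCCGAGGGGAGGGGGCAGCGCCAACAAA
Col4a2: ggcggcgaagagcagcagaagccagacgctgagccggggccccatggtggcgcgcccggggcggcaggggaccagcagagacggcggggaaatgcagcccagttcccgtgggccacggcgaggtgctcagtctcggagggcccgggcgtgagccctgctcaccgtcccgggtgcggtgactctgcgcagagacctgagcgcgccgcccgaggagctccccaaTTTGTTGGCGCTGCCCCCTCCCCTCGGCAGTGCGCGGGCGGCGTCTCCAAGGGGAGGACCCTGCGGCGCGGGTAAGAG
The annotated start sites lie 21 bases apart, inside the capitals. Each lies downstream of the other gene's start, so the annotated transcripts overlap at their 5' ends and no gap separates them. For comparison, the start sites of Col4a5 and Col4a6, a further head-to-head pair of this family, on chromosome X, lie 1343 bases apart. Both distances are given without direction.

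The windows of Col4a1 and Col4a2 were 74.0% and 73.7% G and C, among the highest shares in the table, where 4.77% and 5.10% of all 32851 windows reached as much and the median was 52.7%. Short motifs were searched on both strands. The GC box GGGCGG, a site bound by Sp1, occurred in the capitals at position 8 of Col4a2 and, as the same site read from the other strand, at position 10 of Col4a1, counted from the start site as 1. The Col4a2 window held it at -192 and -48 too. The CCAAT box occurred at -145 in Col4a1 and at -32 in Col4a2. Neither window held the TATA box TATAAA or AGAACA, an arm of the androgen response element. Over all windows the GC box was found in 35.7%, CCAAT in 37.4%, TATAAA in 13.6% and AGAACA in 19.0%. Among 36 windows of the 33 collagen genes found in the table, 61.1%, 36.1%, 13.9% and 5.56% held them, and their median G and C share was 59.8%. A match of letters is a description and does not show binding.

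**Figure D2:**
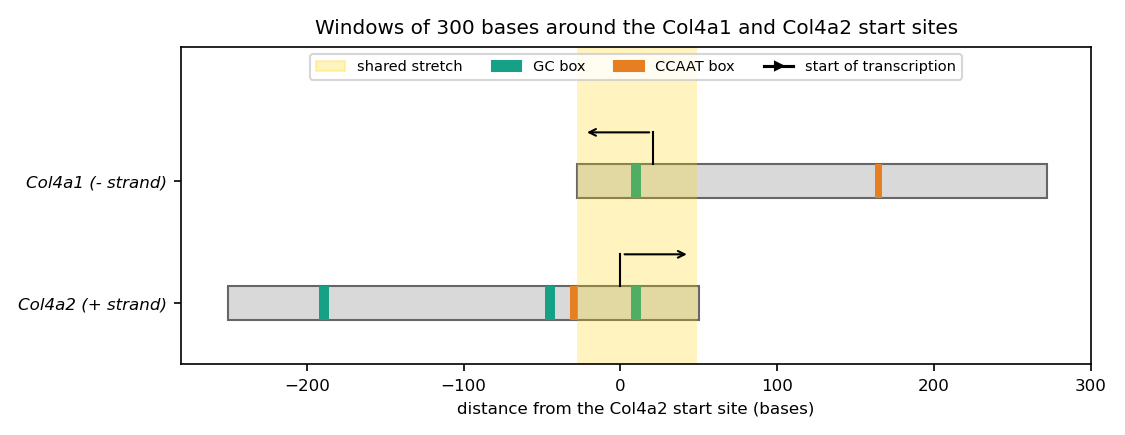
The windows around the start sites of Col4a1 (upper bar) and Col4a2 (lower bar), drawn to scale by distance in bases from the Col4a2 start site; arrows show the start and direction of transcription and the shaded band the 78 bases that the windows share. The GC box inside the band is a single site seen in both windows. Each CCAAT box lies upstream of its own gene's start site and downstream of the other gene's annotated start site.

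Col4a1 was at 10.64, 10.80 and 10.72 in SCARKO-jsd 1, 2 and 3, against 10.27, 10.22 and 10.00 in jsd 1, 2 and 3 (log2 expression). Every SCARKO-jsd array lay above every jsd array, and the gap between the groups exceeded the spread inside either. The group means were 10.72 ± 0.08 and 10.17 ± 0.14 (SD, n = 3 each), a log2 fold change of 0.55 ± 0.10 (SE; 95% interval 0.31 to 0.79) with a limma adjusted p of 0.0317. A second bright probe set gave 9.88, 10.28 and 9.77 in SCARKO-jsd 1, 2 and 3, against 9.75, 9.71 and 9.29 in jsd 1, 2 and 3. Its groups did not overlap either, by a narrow margin between SCARKO-jsd 3 and jsd 1, and its log2 fold change was 0.39. Averaged over both probe sets, Col4a1 had a log2 fold change of 0.47 and was no longer called (limma adjusted p = 0.115), and median centring of the arrays ended the call too (0.60, adjusted p = 0.0607).

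Col4a2 was at 10.01, 10.21 and 10.00 in SCARKO-jsd 1, 2 and 3, against 9.69, 9.65 and 9.41 in jsd 1, 2 and 3 (log2 expression, from its only probe set). The arrays ranked much as they did for Col4a1, with SCARKO-jsd 2 highest and jsd 3 lowest for both chains, and the groups did not overlap. The log2 fold change was 0.49 ± 0.11 (SE; 95% interval 0.23 to 0.75) with a limma adjusted p of 0.0615. Without SCARKO-jsd 2, the fold changes of Col4a1 and Col4a2 were 0.51 and 0.42 (limma adjusted p = 0.0270 and 0.0562). The call of Col4a1 ended without jsd 1, jsd 2, jsd 3, SCARKO-jsd 1 or SCARKO-jsd 3 (limma adjusted p = 0.0506 to 0.121).

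The remaining type IV chains form other networks. Col4a3, Col4a4 and Col4a5 chains assemble with each other in the membrane of the kidney glomerulus and in few further tissues, the testis among them, and Col4a5 also assembles with Col4a6. Col4a3 was at 8.49, 8.83 and 8.03 in SCARKO-jsd 1, 2 and 3, against 8.35, 8.04 and 8.15 in jsd 1, 2 and 3. Col4a4 was at 10.81, 10.24 and 10.51 in SCARKO-jsd 1, 2 and 3, against 10.53, 10.39 and 10.56 in jsd 1, 2 and 3. Col4a5 was at 9.15, 9.57 and 8.58 in SCARKO-jsd 1, 2 and 3, against 8.85, 8.88 and 8.97 in jsd 1, 2 and 3. In each of these genes the SCARKO-jsd arrays spread more widely than the jsd arrays and enclosed or overlapped them. Col4a6 ran from 7.02 to 7.47 in SCARKO-jsd and from 7.15 to 7.24 in jsd arrays.

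None of the 4 passed the test. Their log2 fold changes were 0.27 ± 0.20 for Col4a3, 0.03 ± 0.15 for Col4a4, 0.20 ± 0.22 for Col4a5 and 0.04 ± 0.12 for Col4a6 (SE), with limma adjusted p values from 0.518 to 0.944. The 95% intervals reached up to 0.73 for Col4a3 and 0.72 for Col4a5, so a difference as large as that of Col4a1 was not excluded for them, while for Col4a4 and Col4a6 they ended at 0.37 and 0.33. Second bright probe sets gave 0.00 for Col4a3, -0.05 for Col4a5 and -0.06 for Col4a6, and 0.02 and -0.15 for Col4a4. SCARKO-jsd 2 was the highest array for Col4a3, Col4a5 and Col4a6, and without it their fold changes were 0.08, -0.03 and -0.06. By head-to-head pair, the fold changes of the main probe sets were thus 0.55 and 0.49 for Col4a1 and Col4a2, 0.27 and 0.03 for Col4a3 and Col4a4, and 0.20 and 0.04 for Col4a5 and Col4a6. Whether the first pair differed more than the others was not tested.

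**Figure D3:**
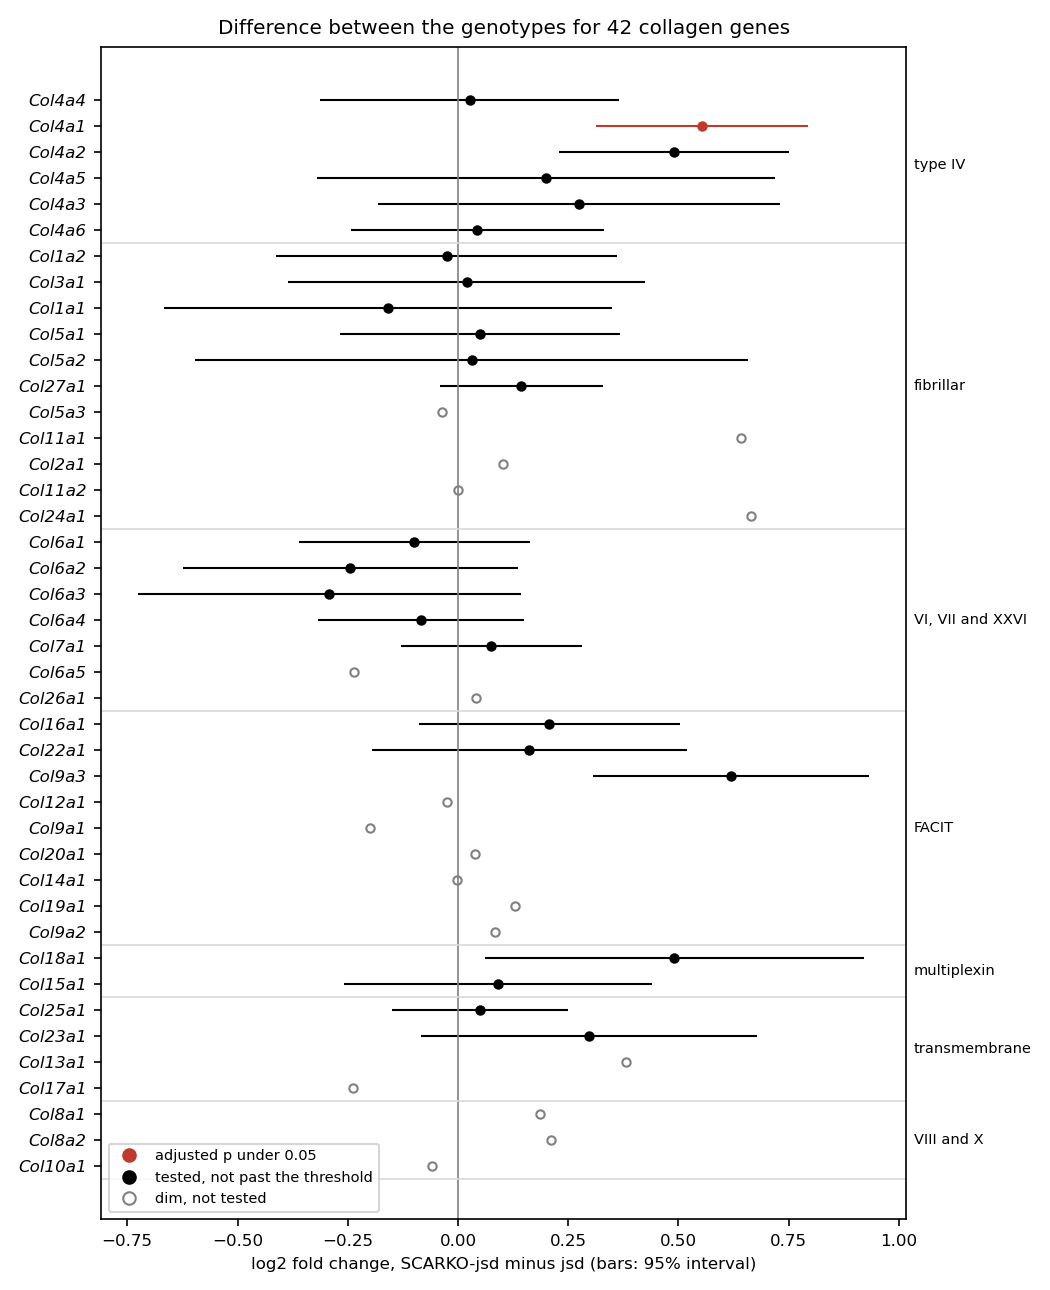
Log2 fold change (SCARKO-jsd minus jsd) of all 42 collagen genes by class, with 95% limma intervals for the 24 tested genes and open points without an interval for the 18 dim ones. Col4a1, in red, is the call at an adjusted p under 0.05; the intervals of Col4a2, Col9a3 and Col18a1 also lie right of 0, and those of types I, III, V and VI span it.

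Col18a1 and Col15a1 are the multiplexins, collagens of basement membrane zones that carry heparan or chondroitin sulfate chains, and the end of Col18a1 is released as endostatin. Col18a1 was at 10.36, 10.70 and 10.59 in SCARKO-jsd 1, 2 and 3, against 9.76, 9.96 and 10.46 in jsd 1, 2 and 3 (log2 expression). The groups overlapped, because jsd 3 lay above SCARKO-jsd 1 and well above the other jsd arrays. The log2 fold change was 0.49 ± 0.18 (SE; 95% interval 0.06 to 0.92; limma adjusted p = 0.216). A second bright probe set gave 0.14, with jsd 3 again the highest jsd array and above every SCARKO-jsd array (10.14 in jsd 3, against 9.97 to 10.08 in SCARKO-jsd). Without jsd 3 the main fold change was 0.69 and without jsd 1 it was 0.34 (limma adjusted p = 0.0670 and 0.532). Col15a1 ran from 7.79 to 8.32 in SCARKO-jsd and from 7.78 to 7.96 in jsd arrays, with a fold change of 0.09 ± 0.15 (SE) that turned to -0.08 without SCARKO-jsd 2.

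Collagens of the FACIT class attach to the surface of fibres. Col9a3, a chain of type IX collagen that decorates the type II fibres of cartilage, was at 7.13, 7.54 and 7.25 in SCARKO-jsd 1, 2 and 3, against 6.86, 6.67 and 6.54 in jsd 1, 2 and 3 (log2 expression). The groups did not overlap, and jsd 3 lay under the dim limit of 6.64 with jsd 2 just above it. The log2 fold change was 0.62 ± 0.13 (SE; 95% interval 0.31 to 0.93) with a limma adjusted p of 0.0539, and it was 0.50 without SCARKO-jsd 2 (adjusted p = 0.0370). Its other probe sets, both dim, gave 0.89 and 0.28. The chains that share a helix with Col9a3 were dim and went no common way, Col9a1 at -0.20 and Col9a2 at 0.08, and type II collagen, Col2a1, was dim too, at 0.10. Of 8 measured markers of cartilage and bone 4 were dim and 0 of the 4 tested were called, where 3.57% of all genes tested were called. The 4 dim markers ran from -0.10 for Matn3 to 0.93 for Ibsp, whose groups overlapped. Col16a1 and Col22a1 had log2 fold changes of 0.21 and 0.16, with overlapping groups. The dim Col12a1, Col14a1, Col19a1 and Col20a1 lay between -0.02 and 0.13.

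Fibrillar collagens are the bulk of the interstitial matrix. Col1a2 was at 12.14, 12.21 and 11.66 in SCARKO-jsd 1, 2 and 3, against 12.25, 11.95 and 11.90 in jsd 1, 2 and 3. Its partner chain Col1a1 was at 9.59, 9.60 and 8.96 in SCARKO-jsd 1, 2 and 3, against 9.91, 9.31 and 9.41 in jsd 1, 2 and 3. Col3a1, the type III chain of pliable fibres, was at 11.82, 12.04 and 11.43 in SCARKO-jsd 1, 2 and 3, against 11.98, 11.62 and 11.64 in jsd 1, 2 and 3. In all 3 genes SCARKO-jsd 3 was the lowest array, jsd 1 was the highest jsd array, and the groups overlapped. The log2 fold changes were -0.03 ± 0.17 for Col1a2, -0.16 ± 0.22 for Col1a1 and 0.02 ± 0.17 for Col3a1 (SE), with limma adjusted p values of 0.951, 0.754 and 0.967. Their 95% intervals ran from -0.41 to 0.36, from -0.67 to 0.35 and from -0.39 to 0.43, so changes of up to about these sizes were not excluded. A second bright probe set gave 0.06, -0.04 and 0.00 in that order.

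Type V collagen sets the width of type I fibres. Col5a1 and Col5a2 had log2 fold changes of 0.05 ± 0.14 and 0.03 ± 0.27 (SE), and Col5a2 spread from 7.07 to 8.21 among the SCARKO-jsd arrays, wider than its 7.45 to 7.89 among jsd arrays. Col27a1, a fibrillar chain known from developing cartilage, was at 7.30, 7.31 and 7.32 in SCARKO-jsd 1, 2 and 3, against 7.15, 7.22 and 7.13 in jsd 1, 2 and 3. Its groups did not overlap, but the difference was 0.14 ± 0.08 (SE; limma adjusted p = 0.404). The dim Col5a3, Col2a1 and Col11a2 lay between -0.04 and 0.10. Col11a1 and Col24a1, both dim, had SCARKO-jsd arrays above all their jsd arrays, with Col11a1 at 6.20 to 6.34 in SCARKO-jsd and 5.33 to 6.11 in jsd arrays, and Col24a1 at 4.04 to 4.58 in SCARKO-jsd and 3.52 to 3.58 in jsd arrays. Their differences were 0.64 and 0.67, and neither passed when dim genes were tested as well (limma adjusted p = 0.160 and 0.0720).

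Type VI collagen forms beaded filaments close to cells. Col6a1 was at 10.78, 10.62 and 10.39 in SCARKO-jsd 1, 2 and 3, against 10.71, 10.70 and 10.67 in jsd 1, 2 and 3. Col6a2, next to Col6a1 on chromosome 10, was at 9.65, 9.77 and 9.25 in SCARKO-jsd 1, 2 and 3, against 10.03, 9.62 and 9.76 in jsd 1, 2 and 3. Col6a3 was at 8.34, 8.45 and 8.03 in SCARKO-jsd 1, 2 and 3, against 8.96, 8.35 and 8.39 in jsd 1, 2 and 3. These chains, which assemble with each other, all had SCARKO-jsd 3 as their lowest array, and jsd 1 was the highest array of Col6a2 and Col6a3. Their log2 fold changes were -0.10 ± 0.11, -0.24 ± 0.16 and -0.29 ± 0.19 (SE), with limma adjusted p values of 0.693, 0.483 and 0.465. Without jsd 1 the last was -0.10, and without SCARKO-jsd 3 the differences of Col6a1, Col6a2 and Col6a3 were 0.00, -0.09 and -0.17. Col6a4 was at -0.08 and Col7a1, which anchors basement membranes to fibres, at 0.08, while the dim Col6a5 and Col26a1 were at -0.24 and 0.04. Every SCARKO-jsd array of Col6a5 lay below its jsd arrays, and it did not pass when dim genes were tested as well (limma adjusted p = 0.383).

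The other collagen classes held few bright members. Among transmembrane collagens, Col23a1 and Col25a1 had log2 fold changes of 0.30 and 0.05 with overlapping groups, and the dim Col13a1 and Col17a1 were at 0.38 and -0.24. SCARKO-jsd 2 alone was at 7.20 for Col13a1, against 6.45 and 6.52 in the other SCARKO-jsd arrays and 6.16 to 6.46 in jsd arrays. The short-chain network collagens Col8a1, Col8a2 and Col10a1 were all dim, with differences of 0.19, 0.21 and -0.06. The groups of Col8a1 did not overlap, and it did not pass when dim genes were tested as well (limma adjusted p = 0.467). Across the 27 collagen genes with more than 1 probe set, 11 had probe sets of opposite sign, and among the 12 with more than 1 bright probe set these were Col1a2, Col4a4, Col4a5 and Col4a6.

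Single arrays stood out across many collagen genes. SCARKO-jsd 2 was the highest array for 15 of the 24 tested collagen genes (48.7% of all genes tested) and SCARKO-jsd 3 the lowest for 12 (14.4% of all genes tested). Averaged over Col1a1, Col1a2, Col3a1, Col5a1, Col5a2, Col6a1, Col6a2 and Col6a3, the deviation from the mean of the 6 arrays was 0.04, 0.20 and -0.38 log2 units in SCARKO-jsd 1, 2 and 3, against 0.27, -0.09 and -0.05 in jsd 1, 2 and 3. SCARKO-jsd 3 was thus low and jsd 1 high for these chains, whereas Col4a1 and Col4a2 were high in SCARKO-jsd 3. The groups did not overlap for 4 tested collagen genes, Col4a1, Col4a2, Col9a3 and Col27a1, all higher, and for 0 that were lower, where 24.6% of all genes tested lay apart, 15.1% as higher and 9.49% as lower. Without SCARKO-jsd 2, 4 lay apart as higher and 2, Col6a3 and Col6a4, as lower, and without SCARKO-jsd 3 the counts were 8 and 0. Groups left with fewer arrays lie apart more readily, and no share over all genes tested is given for these counts.

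**Figure D4:**
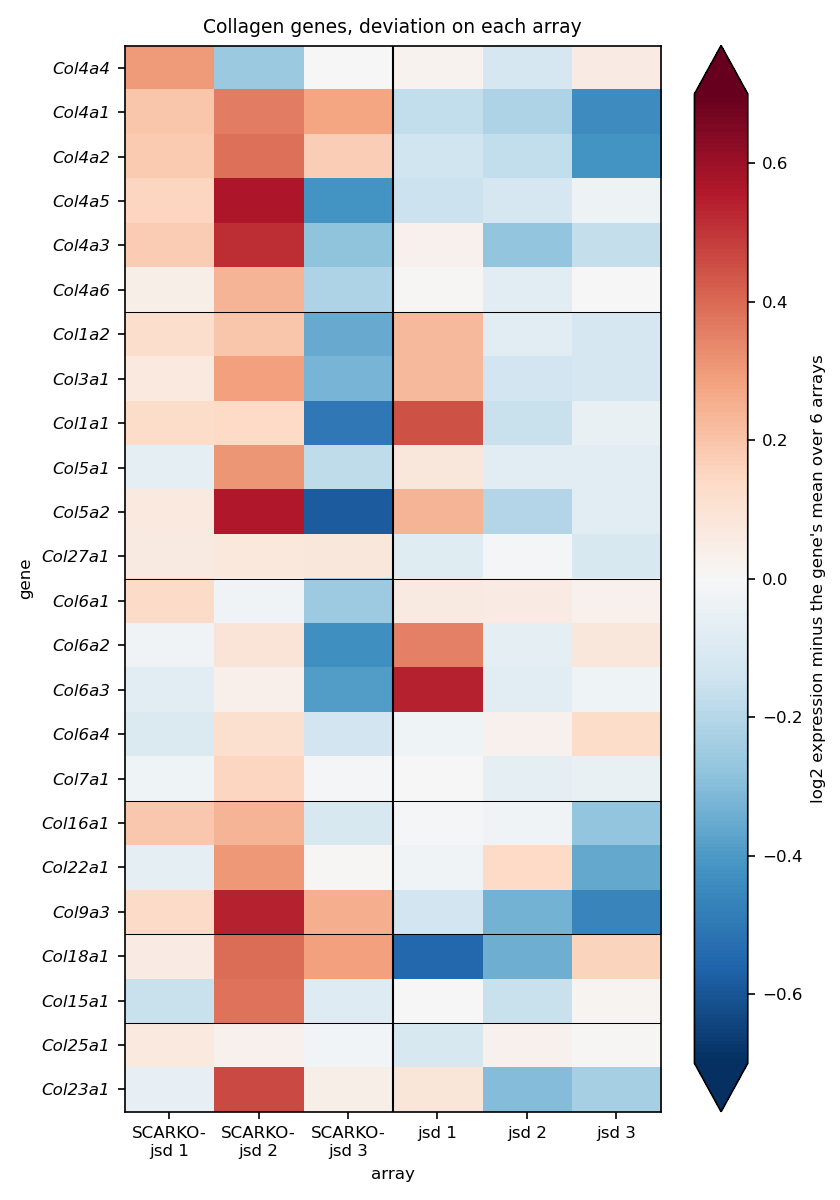
Deviation of each of the 24 tested collagen genes from its own mean over the 6 arrays (log2 units, red above and blue below), with SCARKO-jsd arrays left of the line and jsd arrays right of it. Col4a1 and Col4a2 are red in each SCARKO-jsd array and blue in each jsd array, while the chains of types I, III, V and VI are blue in SCARKO-jsd 3 and mostly red in jsd 1.

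Of 32 measured genes that fold, modify, trim and cross-link collagen, 23 were tested and 0 were called by limma, where 3.57% of all genes tested were called. At an unadjusted p under 0.05, 1 was higher and 2 were lower, where 18.0% of all genes tested passed, and the median log2 fold change was 0.04. Pcolce, which speeds removal of the tail of fibrillar procollagen, was at 13.46, 13.67 and 13.61 in SCARKO-jsd 1, 2 and 3, against 13.23, 13.27 and 13.26 in jsd 1, 2 and 3. Its arrays were close together inside each group and did not overlap between them, a difference of 0.33 ± 0.09 (SE; limma adjusted p = 0.1003) that passed with a moderation trend and robust fit (0.0309) and with array weights (0.0233). Bmp1, the protease that removes that tail, was at 0.33, Fkbp14, a prolyl isomerase of the endoplasmic reticulum, at -0.26, and P4ha2, a subunit of prolyl hydroxylase, was at -0.51 (limma adjusted p = 0.289, 0.261 and 0.270). Lox, the copper enzyme that starts cross-linking, was dim, as was Pcolce2, a relative of Pcolce, whose groups did not overlap at a difference of 0.86.

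Of 27 measured partners of type IV collagen in the basement membrane, 19 were tested and 0 were called by limma, where 3.57% of all genes tested were called. At an unadjusted p under 0.05, 0 passed, where 18.0% of all genes tested did, and the median was 0.03. The laminin chains Lama4, Lamc1 and Lama1 had log2 fold changes of 0.35, 0.21 and -0.26, and Ntn4, a netrin of basement membranes, of -0.20 (limma adjusted p = 0.299 to 0.356). Npnt, nephronectin, a basement membrane ligand of integrins, was dim by its mean over 6 arrays. It was at 6.84, 7.56 and 7.23 in SCARKO-jsd 1, 2 and 3, against 6.10, 5.97 and 5.62 in jsd 1, 2 and 3. Its groups did not overlap, its SCARKO-jsd arrays lay above the dim limit, and it was called as higher by 1.31 when dim genes were tested too (limma adjusted p = 0.0165). The dim Fbln2 and Egfl6 also had groups that did not overlap, with differences of 1.02 and -0.92, and were not called then (limma adjusted p = 0.105 and 0.109).

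Among 21 measured genes of the interstitial matrix, 13 were tested and 0 called by limma, where 3.57% of all genes tested were called. At an unadjusted p under 0.05, 3 were higher and 2 lower, where 18% of all genes tested passed, 10.9% as higher. Decorin, Dcn, which binds type I fibres, was at 12.80, 12.39 and 12.68 in SCARKO-jsd 1, 2 and 3, against 13.13, 13.00 and 13.00 in jsd 1, 2 and 3. The groups did not overlap, with a difference of -0.42 ± 0.12 (SE; limma adjusted p = 0.114). Prelp was at 0.60, Ecm1 at 0.36 and Mfap5 at -0.41 (adjusted p = 0.117 to 0.155). Mfap5 passed the filter only through its jsd arrays, as its SCARKO-jsd mean of 6.47 lay under the dim limit. Thbs1, thrombospondin-1, a matrix protein that can activate TGF-beta, was dim, at 5.40, 5.72 and 5.59 in SCARKO-jsd 1, 2 and 3, against 6.90, 6.84 and 6.21 in jsd 1, 2 and 3. Its groups did not overlap, and it was called as lower, with -1.08, when dim genes were tested too (limma adjusted p = 0.0282). The dim Postn, periostin, was at 0.60 with groups that did not overlap and was not called then (0.184).

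Receptors and uptake genes held 0 calls by limma among 10 tested of 16 measured, where 3.57% of all genes tested were called, and 0 at an unadjusted p under 0.05, where 18.0% of all genes passed. The collagen receptor kinase Ddr1, with 0.22, Cd93, with 0.29, Cd36, with 0.35, and Itgb3, with 0.29, had the smallest p (limma adjusted p = 0.310 to 0.335). Itgb3 passed the filter only through its SCARKO-jsd arrays, as its jsd mean of 6.50 lay under the dim limit. Among collagenases and their inhibitors, 12 of 20 measured were tested and 1 was called, higher. Mmp11, a secreted metalloproteinase, was at 9.09, 9.34 and 8.90 in SCARKO-jsd 1, 2 and 3, against 8.04, 8.07 and 8.44 in jsd 1, 2 and 3, so it rose by 0.93 ± 0.15 (SE; limma adjusted p = 0.0198). Mmp14, a membrane protease that cleaves fibrillar collagen, was at -0.59, Ctsk, a cathepsin that degrades collagen, at 0.39, and Mmp23 at -0.30 (limma adjusted p = 0.0524, 0.110 and 0.468). The call of Mmp11 ended without jsd 1 or jsd 2 (adjusted p = 0.105 and 0.0969). Mmp14 was called in 7 of 15 other settings, including a threshold of 0.1. Among them were leaving out SCARKO-jsd 1 or SCARKO-jsd 2 (limma adjusted p = 0.0405 and 0.0477) and leaving out the lowest 60% of genes (0.0423). The mean of the Mmp14 probe sets moved it further from the threshold (0.154).

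Growth factor and TGF-beta pathway genes, among them the repressors Ski, Skil, Smad6 and Smad7, included 2 calls, both higher, among 22 tested of 23 measured, where 1.78% of all genes tested were called as higher. The list median was 0.13 against 0.04 over all genes tested, and 0.05 without SCARKO-jsd 2. Ccn2, connective tissue growth factor, a target of TGF-beta, was at 10.77, 10.98 and 10.63 in SCARKO-jsd 1, 2 and 3, against 10.02, 10.27 and 10.14 in jsd 1, 2 and 3. It rose by 0.65 ± 0.12 (SE; limma adjusted p = 0.0292). Pdgfa, a growth factor for mesenchymal cells, was at 8.34, 8.62 and 8.25 in SCARKO-jsd 1, 2 and 3, against 7.75, 7.54 and 7.88 in jsd 1, 2 and 3, and rose by 0.68 ± 0.13 (SE; limma adjusted p = 0.0376). For both genes the SCARKO-jsd arrays lay above all jsd arrays. Tgfb1 itself was at -0.31 and Ltbp1, which stores TGF-beta in the matrix, at 0.56 (limma adjusted p = 0.138 and 0.107), where the mean of the Ltbp1 probe sets gave 0.19 (0.539). Both calls held without SCARKO-jsd 2 and ended when any other array was left out (limma adjusted p as high as 0.147 for Ccn2 and 0.156 for Pdgfa) or with median centring (0.0519 and 0.0582). The mean of probe sets ended the call of Pdgfa too (0.0543).

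Markers of cells that make collagen, and of other testis cells, are given beside these results, and their part in them was not tested. For the counts below, 1.78% of all genes tested were called by limma as higher and 1.8% as lower. All 7 pericyte markers had positive differences, with a median of 0.32 and 0 called, and their summed linear level ran from 2556 to 3172 in SCARKO-jsd and from 2281 to 2525 in jsd arrays. Without SCARKO-jsd 2 the pericyte median was 0.16, with 6 positive and 1 negative, and the sum ran from 2556 to 2605 in SCARKO-jsd arrays. Of 13 fibroblast markers 12 were tested, 9 of them with negative differences, with 0 called and a median of -0.18. Dpt and Mfap5, both negative, passed the filter only through their jsd arrays, as their SCARKO-jsd means lay under the dim limit. The fibroblast sum ran from 18500 to 20330 in SCARKO-jsd and from 21180 to 24650 in jsd arrays. The sums weigh bright probe sets most, and Rgs5 made up 55.1% of the pericyte sum and Dcn 35.4% of the fibroblast sum. Dcn and Mfap5 belong to the fibroblast list as well as to the matrix list. The 14 myoid markers had 0 calls, a median of 0.04 and sums from 25820 to 26890 in SCARKO-jsd and from 25440 to 28060 in jsd arrays. Among 12 tested of 14 endothelial markers 1 fell, Kdr, with -0.79 (limma adjusted p = 0.0429), the median was 0.17 (0.03 without SCARKO-jsd 2), and Pecam1 and Tie1 were dim. Emcn and Flt1 passed the filter only through their SCARKO-jsd arrays, as their jsd means lay under the dim limit. The endothelial sum ran from 3486 to 4358 in SCARKO-jsd and from 3737 to 4034 in jsd arrays. Of 14 Sertoli markers 1 fell, Wt1, with -0.48 (limma adjusted p = 0.0394), and the Sertoli sum ran from 84290 to 90800 in SCARKO-jsd and from 85280 to 92460 in jsd arrays. The calls of Kdr and Wt1 held without SCARKO-jsd 2 and ended without any of the others (limma adjusted p up to 0.175 and 0.187) and with median centring (0.0904 and 0.151). Leydig (7 tested) and macrophage (13 tested) markers held 0 calls, with medians of 0.05 and -0.06. Of 13 markers of spermatogonia, Uchl1, Dazl and Stra8 rose by 0.68, 0.82 and 0.99, and Id4 fell by 1.17 (limma adjusted p = 0.0172 to 0.0379). Sohlh1 and Sohlh2 of this list, not called, passed the filter only through their SCARKO-jsd arrays. Of 4 tested markers of spermatocytes and spermatids, Sycp3 and Meig1 rose by 1.31 and 0.84 (limma adjusted p = 0.00389 and 0.0200). Without jsd 1 or jsd 2, the calls of Uchl1, Dazl, Stra8, Id4 and Meig1 ended (limma adjusted p = 0.0785 to 0.163), and that of Sycp3 held. Over all other settings, these 2 included, the calls of Uchl1, Id4 and Meig1 each ended in 3 of 15. Those of Dazl and Stra8 ended in 4 of 15 and 4 of 14, and that of Sycp3 in 0 of 14.

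**Figure D5:**
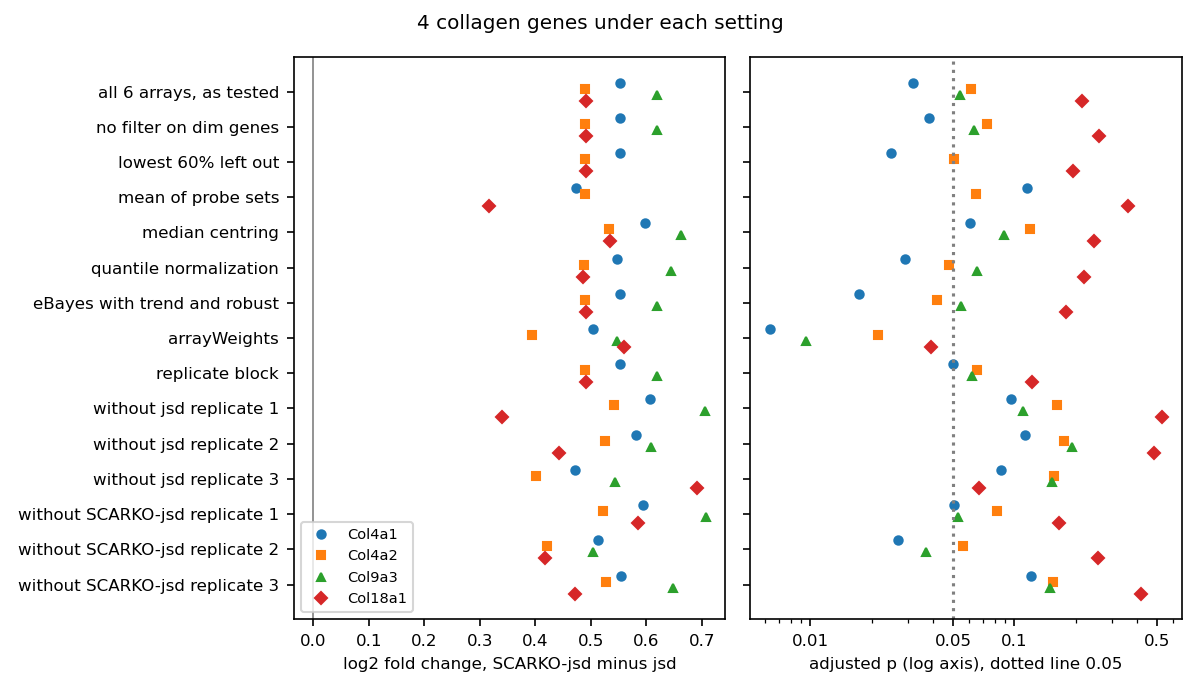
Log2 fold change (left, SCARKO-jsd minus jsd) and limma adjusted p (right, log axis, dotted line at 0.05) of Col4a1, Col4a2, Col9a3 and Col18a1 under each processing setting and with each array left out. The fold changes of all 4 genes lie between 0.32 and 0.71 in every setting drawn, while the adjusted p of Col4a1 lies on either side of the line; Col9a3 has no point where the filter or the probe set mean left it untested.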

How the data were processed

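Per the submitters' processing notes, the deposited log2 expression per probe set came from RMA as run by affy, with no version stated. RMA evens out probe intensities across arrays before summing them up per probe set, which hides any shift shared by most transcripts; the deposited array medians were 6.26 in SCARKO-jsd 2 and 6.40 to 6.41 in the other arrays. The values ran from 2.58 to 14.84 over 45101 probe sets. GEO's platform annotation named the genes. For each gene the brightest probe set with a single symbol was kept, and genes in the lowest 40% of the mean were left out. The 10916 genes left were tested with limma 3.58.1 (lmFit and eBayes, two-sided, Benjamini-Hochberg, threshold 0.05) run under R 4.3.3. Genotype was the single term, and the fit was tested on simulated data. The members and gene lists were chosen with earlier results of these data known. Lists are described by counts and medians, with no test of a list. Collagen genes named with values on each array are Col4a1, Col4a2, those with an unadjusted p under 0.05 and the 10 brightest, with Col4a3, Col6a3, Col13a1 and Col27a1 chosen after their values were seen. List genes named are the called ones and up to 4 with the smallest p. Lox, Pcolce2, Npnt, Fbln2, Egfl6, Thbs1, Postn, Ibsp and Matn3 were chosen after their values were seen. List medians and sums without SCARKO-jsd 2 were added after seeing the data. Promoter windows are RefSeq's, on GRCm38.p6. The precision is limited by the number of arrays, with a median SE of 0.11 over genes tested. The alternatives were other filters, probe set rules, scalings, moderation, array weights, a replicate block and each array left out. The gene targeted in SCARKO-jsd mice is not reported here. Figures were drawn with matplotlib 3.10.9.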

Additional observations from a re-analysis of the deposited data

How the results depend on the processing

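All 24 tested collagen genes are limited by 3 arrays per group and, for those near 6.64, by dim signal. Against 1 called collagen gene, Col4a1, among 390 calls in all, 0 were called with the mean of probe sets (311 in all). There were also 0 with every probe set by itself (246 in all) and with median centring (263 in all). A further quantile normalization (404 in all) and trend and robust (465 in all) each gave 2, Col4a1 and Col4a2. An adjusted p threshold of 0.1 gave 3, with Col9a3 added (728 in all). With arrayWeights by its gene-by-gene method there were 4, with Col18a1 added (1387 in all). Leaving out each array in turn gave 0 to 2 calls among collagen genes and 78 to 768 over all genes. Over all settings with 1 value per gene the log2 fold change of Col4a1 stayed between 0.47 and 0.61 and that of Col4a2 between 0.39 and 0.54. Among the genes of the pathway lists, 3 calls became 5 with no filter on dim genes (Npnt and Thbs1 added) or with trend and robust, 1 with every probe set by itself or median centring, 13 with arrayWeights, and 0 to 6 with an array left out. Collagen genes whose groups lie apart numbered 7 higher and 1 lower of 42 with no filter. With the lowest 60% left out they numbered 2 higher and 0 lower of 12. No share over all genes is given for these 2 filters. In the main fit 15.1% of all genes tested lay apart as higher and 9.49% as lower. With an array left out, collagen genes whose groups lie apart numbered 4 to 8 higher and 0 to 2 lower. Smaller groups lie apart more readily, and no share over all genes is given there. The cause of the changes between settings was not tested. No called value turned its direction. The deviations of same-numbered arrays of the groups had correlations of -0.21, 0.23 and 0.24 for numbers 1, 2 and 3. Between arrays of unlike number they ran from -0.39 to 0.35, so the numbers were not taken as pairs. With a replicate block 397 genes, 1 collagen gene and 3 pathway genes were called. The limma adjusted p of Col4a1 was then 0.04998, just inside the threshold, while those of Pdgfa and Wt1 (0.0591 and 0.0657) lay outside it.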
